A study of Mus musculus with 6 samples.

Results

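Collagen-expressing cells made up 342 of the 5372 cells, or 6.37% (5.73 to 7.05), in the E11.5, E13.5 and E15.5 libraries of mouse hypothalamic cells sorted for a Pomc-driven red reporter. They were chosen by their own counts of unique molecular identifiers (UMIs, each standing for 1 captured RNA molecule). A cell was taken when at least 3 of the matrix genes Col3a1, Col1a1, Col1a2, Dcn, Lum and Bgn had 2 or more UMIs and fewer than 3 of 6 genes of neurons (Elavl3, Mapt, Snap25, Stmn2, Syt1 and Tubb3) did. By this rule 164 of the 1498 cells of the E11.5 library were taken, 122 of 1796 in the E13.5 library and 56 of 2078 in the E15.5 library. The whole series held 13953 cells in 6 libraries.

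Each library came from 1 age and from a pool of at least 6 C57BL/6 animals carrying the POMC-DsRed transgene, bred by crossing POMC-DsRed/+ mice with each other. Untreated medial basal hypothalami were dissociated with papain, for longer at E15.5 than at the 2 earlier ages, and red cells were sorted and run with version 2 of the 10x Genomics droplet reagents. The transgene is driven by Pomc sequences, and the deposited cells were limited to those with at least 1 Pomc UMI, so cells without the reporter or without any Pomc UMI could not be counted. With 1 library per age no difference between ages could be tested against the spread between animals. All intervals are 95%, exact (Clopper-Pearson for shares, Poisson for counts), and cover counting error only. Age and library cannot be told apart.

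The leptomeninges are the thin connective tissue sheets, pia and arachnoid, that wrap the brain and follow its vessels inwards. Their fibroblasts lay down fibrillar collagens and proteoglycans next to the basement membrane of the brain surface, and are known for secreting Cxcl12, bone morphogenetic proteins and retinoic acid towards the developing brain. Before they take on these traits they are loose embryonic mesenchyme, marked by transcription factors such as Foxc1, Twist1 and Prrx1.

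The leading result was a change between E11.5 and E13.5. Of genes that the rule did not use, 7 of 10 tested for the basement membrane and 10 of 14 tested leptomeningeal markers rose, and 12 of 14 genes of G2 and M phase fell. Over all genes tested at that step, 10.6% were called higher and 4.91% lower. The rule's own collagen genes and decorin also rose, which is given as a description only, since they chose the cells. From E13.5 to E15.5 few further genes moved, among them Ptgds, the prostaglandin D2 synthase of the meninges, which rose 25.9-fold (19.4 to 35.3). Levels are given throughout in UMIs per 10000 UMIs of a cell, averaged over cells, and are not divided by transcript length.

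The promoters of 4 genes that rose are shown as examples. Col1a2 and Col3a1 are matrix genes of the rule. Slc6a13 is a leptomeningeal marker called higher from E11.5 to E13.5, and Ptgds is one called higher from E13.5 to E15.5. Each line gives the 150 bases that precede the transcription start in RefSeq's table for GRCm38.p6, 5′ to 3′ on the gene's strand, with matches to the CCAAT box (CCAAT), the TATA motif (TATAA) and the E-box (CANNTG), searched on both strands, in capitals. The windows are chr6:4505468-4505617 (plus strand) for Col1a2, chr1:45311388-45311537 (plus) for Col3a1, chr2:25469750-25469899 (minus) for Ptgds and chr6:121300138-121300287 (plus) for Slc6a13.
Col1a2: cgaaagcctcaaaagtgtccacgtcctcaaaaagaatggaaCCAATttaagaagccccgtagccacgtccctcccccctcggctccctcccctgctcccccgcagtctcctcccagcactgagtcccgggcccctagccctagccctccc
Col3a1: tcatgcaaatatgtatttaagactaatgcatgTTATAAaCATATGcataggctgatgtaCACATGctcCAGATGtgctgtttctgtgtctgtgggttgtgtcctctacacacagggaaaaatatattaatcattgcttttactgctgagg
Ptgds: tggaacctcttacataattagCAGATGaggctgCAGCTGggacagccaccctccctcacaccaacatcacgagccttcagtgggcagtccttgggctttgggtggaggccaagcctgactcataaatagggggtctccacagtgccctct
Slc6a13: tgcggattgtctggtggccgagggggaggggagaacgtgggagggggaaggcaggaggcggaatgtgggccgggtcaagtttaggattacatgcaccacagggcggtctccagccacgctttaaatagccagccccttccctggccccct

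The window of Col1a2 held 1 CCAAT match, and that of Col3a1 held 3 E-box matches and 2 overlapping TATAA matches, 1 on each strand. The Ptgds window held 2 E-box matches and that of Slc6a13 none of the 3 motifs. Of the 32851 promoter windows of that length in the table, 24.5% held CCAAT, 14.2% TATAA and 47.7% CANNTG, so these are common letters and the matches are a description only. Col1a1 and Dcn are named without a sequence.

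Among cells with fewer than 3 neuronal genes, few lay near the cut on the matrix side. At E11.5, of the cells with fewer than 3 neuronal genes, 22 had no matrix gene at 2 UMIs, none had 1 or 2, and 4, 39, 114 and 7 had 3, 4, 5 and 6. At E13.5, 7 such cells had none and the members had 5 (1 cell) or 6 (121 cells), and at E15.5 the numbers were 60 cells with none, 4 with 1, 11 with 5 and 45 with 6. Of cells with 3 or more neuronal genes, 6, 55 and 11 had 1 matrix gene at 2 UMIs at the 3 ages, and 1, 1 and 0 had 2. Summed over the 6 genes, the member with the fewest matrix UMIs had 16, 72 and 47 at the 3 ages, and the neuron with the most had 14, 6 and 3. These genes chose both groups, and cells that met both sets of thresholds were left out, so this gap is a description only. On the neuronal side more cells lay next to the cut: 26, 17 and 9 members lay just inside it with 2 neuronal genes, and 2, 7 and 4 cells lay just outside with 3.

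Cells that met both sets of thresholds numbered 37, 43 and 14 and were left out. Their median UMIs were 30096, 21742 and 17028.5, against 19706.5, 12806.5 and 11709 in members and 16663, 12773 and 10691 in neurons. The 5% of cells with the highest Scrublet doublet scores held 30, 28 and 9 of these cells, but 1, 0 and 0 members. One member at E11.5 stood apart: it had UMIs of 14 of the 15 myeloid markers and 200 of the 203 Pf4 UMIs, a macrophage chemokine, in all members of that library, with 37453 UMIs in total. Libraries shared between 0 and 5 cell barcodes per pair. Total UMIs were 27978737, 24513371 and 24458746 in the 3 libraries, of which the members held 3383007, 1639122 and 693716.

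The share of collagen-expressing cells was lower at each later age when the rule was applied at full depth. From the youngest to the oldest of the 3 ages it was 10.9% (9.41 to 12.6), 6.79% (5.67 to 8.06) and 2.69% (2.04 to 3.49), and the intervals did not overlap. At E17.5, 0 of 1139 cells met the rule, which allows a share of up to 0.263% when 3 cells are taken as the limit of a count of 0, and of up to 0.323% by the exact interval. When every cell was first thinned to 3000 UMIs, 4.54%, 7.91% and 3.15% of cells met the rule, so the order of E11.5 and E13.5 turned over. E11.5 was the age with the lowest matrix genes, and its share depends on the depth at which the rule is applied. The share is one of sorted cells with a Pomc UMI, and changes in dissection, in reporter signal and in tissue content cannot be told apart.

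Pomc, the gene behind the sort, encodes proopiomelanocortin, the precursor of melanocortin peptides, and lies at chr12:3954951-3960642 (GRCm38, plus strand). Members carried it barely above the limit of 1 UMI that the deposited cells have to pass. Exactly 1 UMI was found in 88.4% (82.5 to 92.9), 86.9% (79.6 to 92.3) and 83.9% (71.7 to 92.4) of members, against 39.5%, 51.2% and 43.0% of neurons of the same libraries. The largest number in any member was 3, 3 and 4 UMIs, and in any neuron 340, 382 and 392. The level in members was 0.597 (0.514 to 0.689), 0.885 (0.744 to 1.04) and 1.05 (0.818 to 1.34), and in neurons 12.9, 11.2 and 13.1. The ratio of members to neurons was 0.0463, 0.0788 and 0.0806 for Pomc, and 0.0179, 0.0281 and 0.0383 for Tubb3, a neuronal tubulin that the rule holds low. The limit of 1 UMI sets a floor for Pomc in every cell, and that floor is a higher level in cells with fewer UMIs. Median UMIs of members were 19706.5, 12806.5 and 11709. The differences of Pomc between ages and from Tubb3 are thus a description only.

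Hemoglobin transcripts were found in members and neurons alike. Hbb-y, an embryonic globin of red cells, had levels of 23.9, 6.44 and 0.481 in members and 24.6, 6.79 and 0.955 in neurons. All 6 hemoglobin genes that reached a level of 0.5 fell in members from E11.5 to E15.5, with a median log2 ratio of -4.59, and in neurons the median of the same genes was -3.65. The globin values thus fell from E11.5 to E15.5 in both kinds of cells, and age and library cannot be told apart here.

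The label of these cells was checked against markers that the rule did not use. Of 20 leptomeningeal markers, 7, 14 and 15 reached a level of 0.5 in members at the 3 ages in order, and their summed level was 18.0, 36.6 and 48.7, against 0.507, 2.15 and 0.814 in neurons. After thinning to 3000 UMIs, 67.1% (59.3 to 74.2), 97.5% (93.0 to 99.5) and 98.2% (90.4 to 100) of members had UMIs of at least 3 of the 20 genes, and 0 of 1275, 1623 and 1931 neurons did. Slc47a1 and Cdh1, also on that list, had no UMI in any member. The markers present at E11.5 were mainly transcription factors (Zic1, Foxd1, Foxc1, Tbx18, Foxc2), with the transporter Slc22a6 and the tight junction gene Cldn11, so the leptomeningeal part of the label was borne out at E13.5 and E15.5 more fully than at E11.5.

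Markers of several other cell types were low, with exceptions that differed between lists. Of the pericyte and smooth muscle list of 15 genes, 3, 2 and 2 reached a level of 0.5 and the summed level was 7.29, 42.8 and 27.5, most of it Vtn. The genes that define pericytes were at or near 0: Rgs5 had 28, 0 and 0 UMIs, Cspg4 6, 1 and 0, and Abcc9 9, 0 and 1, while Myh11 of smooth muscle had none. Of 13 endothelial genes, 0, 2 and 2 reached 0.5 (summed level 1.08, 7.65 and 8.18), namely Ramp2 and Cdh5, whereas Pecam1, Cldn5 and Flt1 had at most 1 UMI in a library and Tek and Sox17 had none. Cdh5, which encodes VE-cadherin, rose 19.7-fold (12.4 to 33.0) from E11.5 to E13.5, and Ramp2, a receptor-modifying protein, 12.7-fold (10.6 to 15.3). At a fixed 3000 UMIs, Cdh5 was found in 1.83%, 35.2% and 39.3% of members and in at most 0.123% of neurons. At full depth Eng was found in 31.1%, 36.1% and 23.2% of members, and Egfl7 in 43.9%, 29.5% and 19.6%. UMIs of at least 3 endothelial genes were found in 15.9%, 42.6% and 37.5% of members at full depth. At 3000 UMIs these shares were 0%, 3.28% and 5.36%. The summed levels of the skeletal muscle, neural crest, pituitary and epithelial lists were at most 0.184, 0.123, 0.122 and 0.374 in members, and no gene of these lists reached 0.5. The myeloid list summed to 1.14, 0.671 and 0.499, and Pf4 had no UMI in members at E13.5 or E15.5.

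For the age comparison a gene was tested when its level in members was at least 0.5 at either age, and called when the ratio of levels, each with 0.05 added, was 2 or more. From E11.5 to E13.5, 388 of 3644 genes (10.6%) were higher and 179 (4.91%) lower at the later age. From E13.5 to E15.5, 58 of 3507 genes (1.65%) were higher and 57 (1.63%) lower, and from E11.5 to E15.5, 443 of 3633 (12.2%) were higher and 406 (11.2%) lower. These shares over all genes are the background for the counts of each list below. After thinning to 3000 UMIs the second step had 164 genes higher and 267 lower, which moves the share of higher calls from 50.4% to 38.1%. The median log2 ratio over all genes tested was -0.02, -0.11 and -0.12 for the 3 pairs. In neurons of the same libraries 3.03% and 1.32% of the genes tested were called higher and lower from E11.5 to E13.5. Of the 388 and 179 genes called in members, 13 and 13 also passed a ratio of 2 in the same direction in neurons, and 12 and 7 in the opposite direction.

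Fibrillar collagens form the load-bearing fibres of connective tissue, and several were called higher at the first step and none at the second. The 3 genes described first were part of the selection, so their height in members is not a finding, and their differences between ages are a description. Col3a1 (chr1:45311538-45349706, plus strand) had levels of 7.96 (7.65 to 8.27), 53.8 (52.6 to 54.9) and 55.8 (54 to 57.6) at E11.5, E13.5 and E15.5. Its promoter window is the one with both E-box and TATAA matches. Col1a1 had 2.88, 20.3 and 24.2, and Col1a2, its partner chain in type I collagen, 5.62, 27.0 and 32.5. From E11.5 to E13.5 the 3 genes rose 6.76-fold (6.46 to 7.07), 7.03-fold (6.54 to 7.58) and 4.8-fold (4.54 to 5.08). Per cell, thinned to 3000 UMIs, Col3a1 had a median of 2 UMIs (0 to 11) at E11.5, 15 (0 to 41) at E13.5 and 15 (4 to 49) at E15.5, so that cells of the first library lay mostly below those of the other 2. Of the 8 genes of the list that the rule did not use, 5 were tested at the first step, 3 rose and 1 fell, with a median log2 ratio of 1.38. The 3 that rose were the chains that nucleate fibrils, Col5a1 with 0.648, 1.77 and 1.43 and Col5a2 with 1.18, 3.48 and 2.49, and Col27a1 with 0.276, 0.817 and 0.582. Col2a1, the cartilage collagen, fell from 1.36 to 0.184 and was 0.276 at E15.5.

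Decorin (Dcn, chr10:97479609-97518143, plus strand), a small leucine-rich proteoglycan that binds collagen fibrils, showed the largest ratio at the first step among genes at a level of 1 or more. It is one of the genes that chose the cells, so its values are a description. Its level was 0.118 (0.0822 to 0.164), 20.0 (19.3 to 20.7) and 23.5 (22.3 to 24.6), a rise of 169-fold (121 to 243) and then a ratio of 1.18. Only 9 of 164 members at E11.5 had 2 or more Dcn UMIs, against all 122 at E13.5 and all 56 at E15.5, so members at E11.5 were taken almost entirely through the other 5 genes. Fmod and Ogn, proteoglycans of the same family outside the rule, had levels of 0.0631, 1.26 and 1.90, and of 0.0105, 0.581 and 1.23. Both rose from E11.5 to E13.5, the only genes of that list outside the rule that were tested, and Ogn rose again, 2.12-fold (1.56 to 2.88), by E15.5. Lum and Bgn rose 3.29-fold and 2.18-fold and had ratios of E13.5 to E15.5 of 1.59 (1.45 to 1.76) and 1.15 (1.06 to 1.24).

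**Figure D1:**
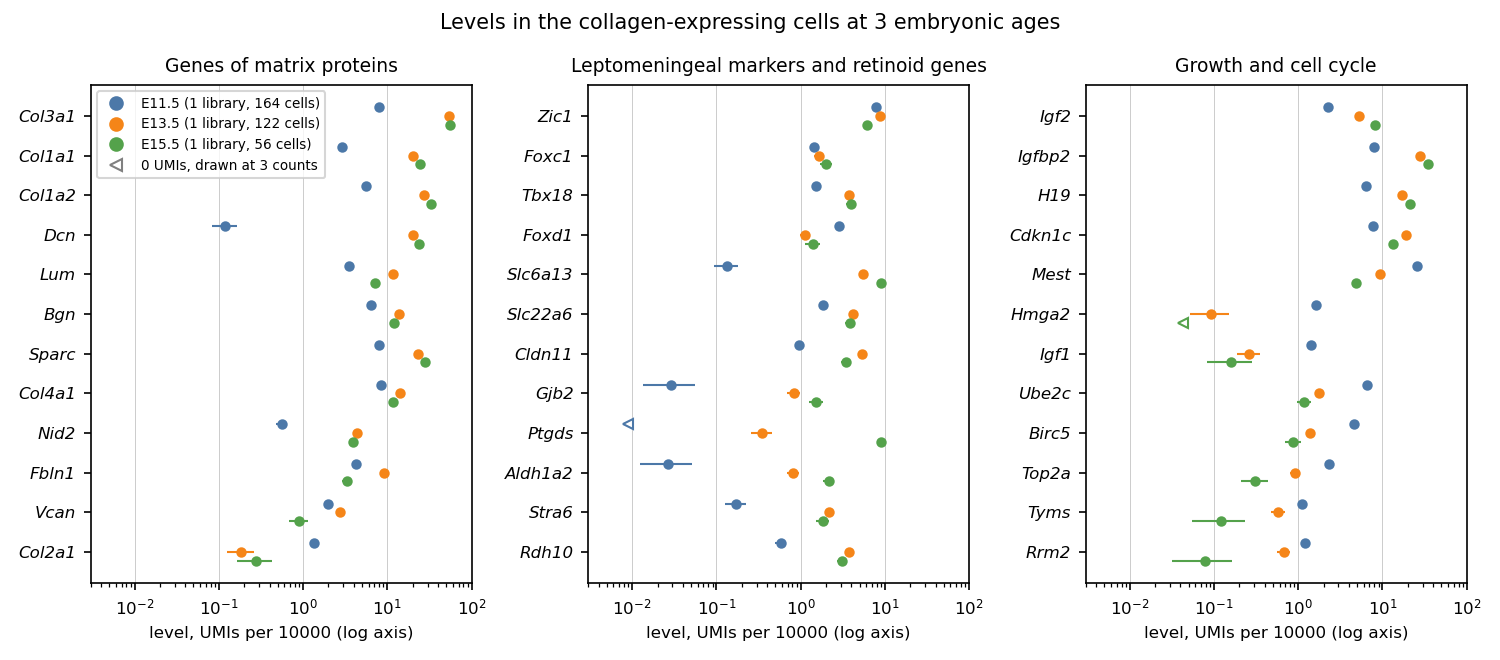
Level of 36 genes (x axis, mean UMIs per 10000, log axis) in collagen-expressing cells at E11.5, E13.5 and E15.5, 1 library each, with bars for the 95% counting interval and open triangles for genes with 0 UMIs, drawn at the level of 3 counts. Col3a1, Dcn, Slc6a13 and Rdh10 sit far to the right at E13.5 compared with E11.5, Ptgds moves again by E15.5, and Mest, Hmga2, Ube2c and Rrm2 move to the left.

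The basement membrane, the sheet of collagen IV and laminins between meninges and brain, followed the fibrillar collagens. Of 10 genes tested at the first step 7 rose and none fell, with a median log2 ratio of 1.65 against 0.13 for the same genes in neurons. Col18a1, the source of endostatin, had levels of 0.554, 5.08 and 4.56 and rose 9.17-fold (7.78 to 10.9). Nid2, a linker of laminin and collagen IV, had 0.556, 4.41 and 3.94, and the laminin chain Lamb1 0.415, 2.63 and 2.33. Col4a1, the main chain of the sheet, had 8.31, 14.1 and 11.6, under the ratio for a call. None of the 13 genes tested from E13.5 to E15.5 was called.

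Genes for processing and for elastic and other matrix moved less uniformly. Of 16 genes for collagen processing 6 rose and none fell at the first step. Lox, the enzyme that cross-links collagen, rose 28.5-fold (13.4 to 72.5), from 0.0249 to 0.712, and Sparc, a collagen-binding matrix protein, from 7.88 to 22.9 and then 28.0. Serpinh1, the collagen chaperone, had 19.6, 26.4 and 19.4 and was not called at any pair. Of 11 elastic fibre and matrix glycoprotein genes 5 rose and 1 fell at the first step, and 2 fell at the second. These were fibulin Fbln1, with levels of 4.27, 9.01 and 3.31, and the large proteoglycan Vcan, with 1.98, 2.72 and 0.898, a ratio of E13.5 to E15.5 of 3.03 (2.30 to 4.05). The beaded collagens of type VI rose with the first group, Col6a1 from 0.945 to 3.88 and Col6a2 from 1.12 to 3.7. Of 8 fibril-associated and beaded collagens tested 6 rose and 1, Col9a1 of cartilage, fell, with levels of 1.46, 0.513 and 0.198. The transmembrane collagen gene Col13a1 had 0.191, 1.08 and 1.57.

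**Figure D2:**
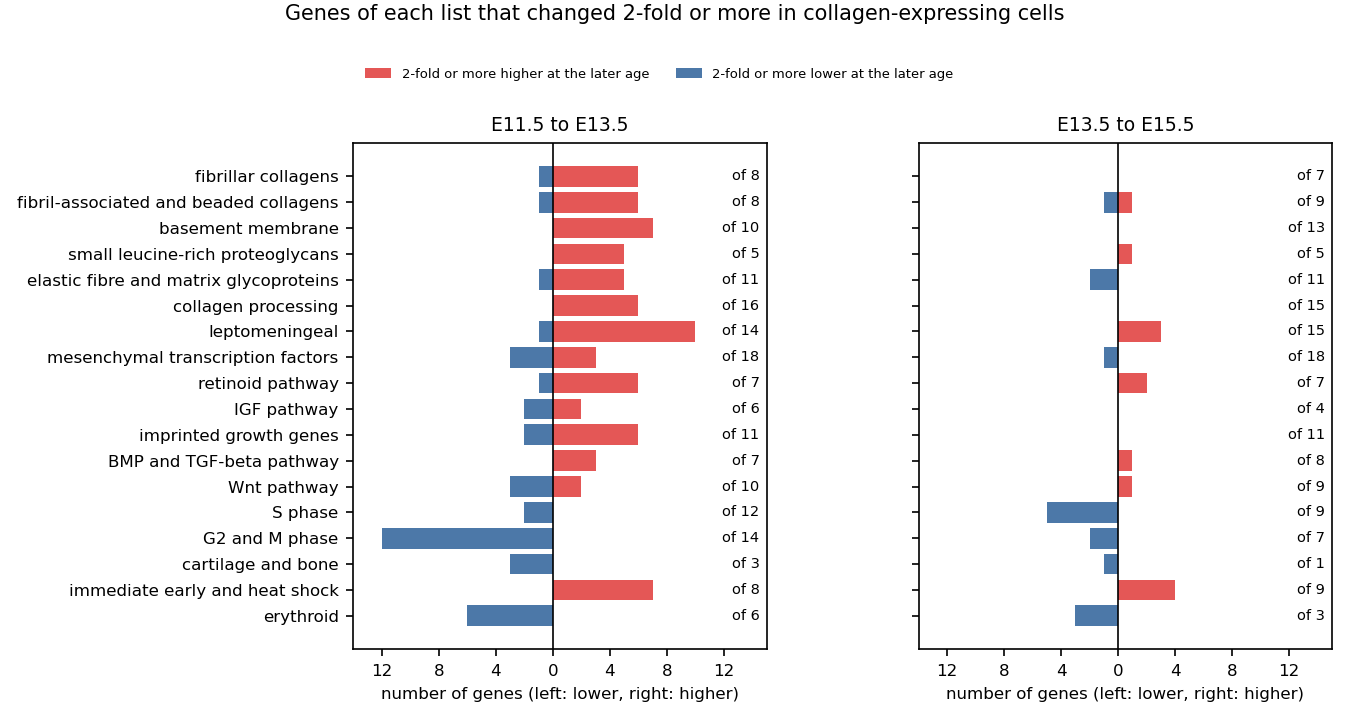
Number of genes of 18 lists (y axis) that were called higher (red, to the right) or lower (blue, to the left) in collagen-expressing cells, for E11.5 to E13.5 and E13.5 to E15.5, with the number of genes tested at the right edge. Matrix, leptomeningeal and retinoid lists point to the right at the first step, the G2 and M phase list to the left with 12 of 14, and few genes of any list are called at the second. The bars of fibrillar collagens and of small leucine-rich proteoglycans include the genes that chose the cells. Without those genes, 3 of 5 and 2 of 2 tested genes of these lists rose at the first step.

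Leptomeningeal markers outside the rule rose in 10 of 14 tested cases from E11.5 to E13.5, against 1 that fell. Their median log2 ratio was 2.0, and 0.05 for the same genes in neurons. Slc6a13 (chr6:121300227-121337733, plus strand), a transporter of GABA and taurine in the meninges, had levels of 0.132 (0.0941 to 0.181), 5.45 (5.09 to 5.82) and 9.05 (8.35 to 9.79) and rose 41.1-fold (29.9 to 58.3) at the first step. At 3000 UMIs it was found in 4.88%, 77.0% and 89.3% of members and in 0.157%, 0.739% and 0.621% of neurons, which are the background here. In cells at full depth the shares were 21.3%, 97.5% and 98.2% of members. The organic anion transporter Slc22a6 had 1.84, 4.24 and 3.81, Cldn11 of tight junctions 0.953, 5.29 and 3.46, and the gap junction gene Gjb2 0.0291, 0.824 and 1.54. Gjb6, its neighbour in the connexin family and outside the list, had 0.0404, 1.86 and 3.8 and was called higher at both steps.

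Ptgds (chr2:25466709-25470046, minus strand), whose promoter window holds 2 E-box matches, appeared last. It had no UMI in the 164 members at E11.5, a level of 0.345 (0.256 to 0.455) at E13.5 and 8.94 (8.24 to 9.68) at E15.5. Against the level of 3 counts at E11.5, 0.00887, that is at least 38.9-fold higher at E13.5. The rise lay in a minority of cells. At 3000 UMIs 11 of 122 members had a Ptgds UMI at E13.5, none with more than 1, and 14 of 56 did at E15.5, with up to 36 in a cell and a median of 0. In neurons 0%, 0.37% and 2.8% had a UMI at the 3 ages. At full depth 13.9% and 35.7% of members had a UMI at E13.5 and E15.5.

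**Figure D3:**
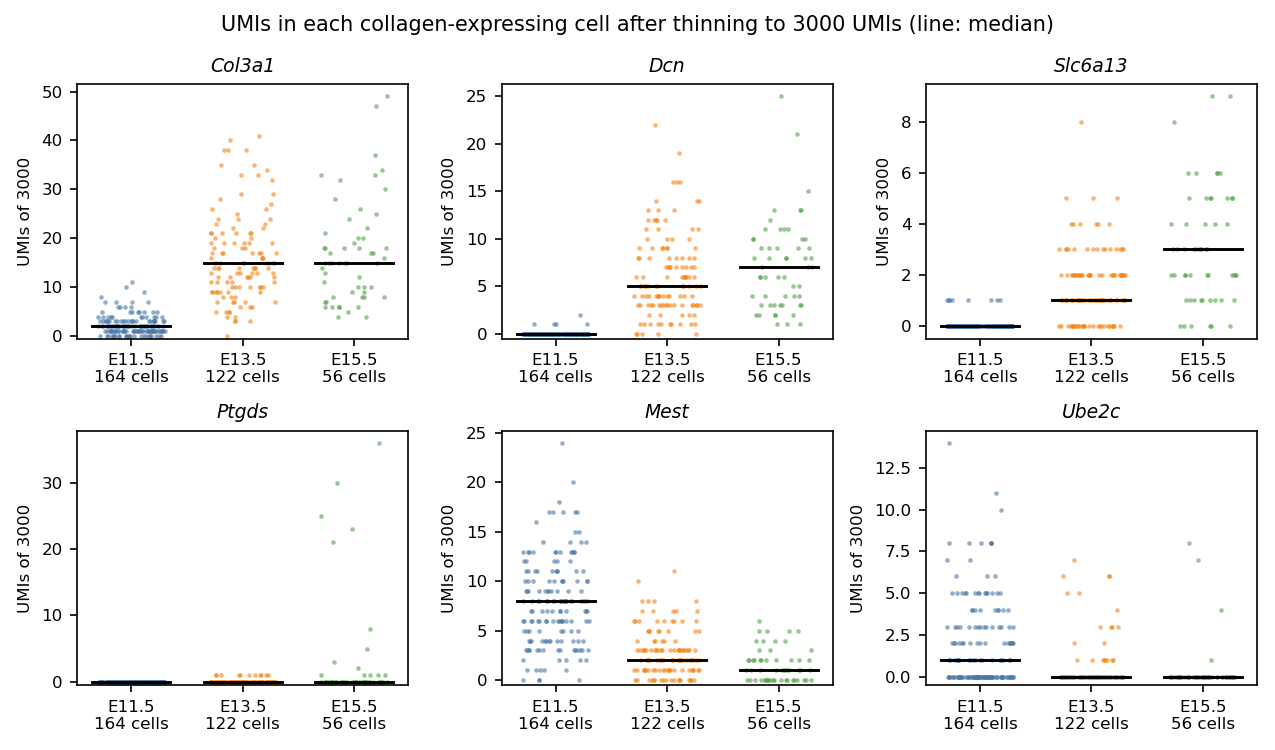
UMIs per collagen-expressing cell after thinning to 3000 UMIs (y axis) for Col3a1, Dcn, Slc6a13, Ptgds, Mest and Ube2c, each point 1 cell and each line the median, in 164, 122 and 56 cells of 1 library per age. Dcn is near 0 in all E11.5 cells and has a median of 5 and 7 UMIs later, Ptgds exceeds 1 UMI only in some E15.5 cells, and Mest falls from a median of 8 to 2 and 1.

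Retinoid genes rose with the leptomeningeal markers. Retinoic acid is made from retinol by a dehydrogenase (Rdh10) and Aldh1a2, with Stra6 as the retinol receptor at the membrane. Of 7 genes tested at the first step 6 rose, and 2 rose again at the second. Aldh1a2 had levels of 0.0270 (0.0124 to 0.0513), 0.812 (0.680 to 0.963) and 2.14 (1.82 to 2.50). Rdh10 had 0.579, 3.75 and 3.13, and Stra6 0.169, 2.15 and 1.82. The binding proteins Crabp1 and Crabp2 moved in opposite directions: Crabp1 fell from 3.09 to 0.390 and 0.0732, and Crabp2 rose from 0.198 to 1.31 and 2.14. In neurons Crabp2 fell over the same ages, from 6.89 to 1.74 and 0.292.

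Among signalling genes a small set was called. Bmp7, a bone morphogenetic protein, had 0.693, 5.05 and 5.15, Wnt4 0.0230, 1.46 and 3.16, and Wnt6 0.0731, 0.633 and 0.970. Of 10 Wnt genes tested at the first step 2 rose and 3 fell, the latter being the secreted Wnt inhibitors Sfrp1, Frzb and Dkk2. Over all genes tested at that step 10.6% rose and 4.91% fell. Of 7 BMP and TGF-beta genes 3 rose, Bmp5, Bmp7 and the receptor Tgfbr2, and none fell. The hedgehog receptor and target Ptch1 rose from 0.0890 to 0.553 and was 1.07 at E15.5, and Pdgfra, a platelet-derived growth factor receptor of fibroblasts, had 0.637, 1.11 and 2.17, called over the whole span only. The chemokine Cxcl12, which guides cells along the meninges, rose 3.47-fold (3.28 to 3.67), with levels of 6.20, 21.5 and 25.7. Of 6 chemokine and guidance genes tested 3 rose, Cxcl12, the Slit receptor Robo1 (0.131, 0.657 and 0.823) and the ephrin receptor Epha7 (1.14, 3.98 and 2.24), and the semaphorin co-receptor Nrp2 fell (0.691, 0.224 and 0.168). Vtn, which encodes the adhesion protein vitronectin, had 4.56, 40.4 and 25.7.

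Growth genes under genomic imprinting split. The paternally expressed growth factor Igf2 had 2.24, 5.30 and 8.16, and its neighbour H19 (chr7:142575529-142578143, minus strand), a maternally expressed non-coding RNA, 6.42, 16.9 and 21.5, and both rose at the first step. Cdkn1c, which encodes the cell cycle inhibitor p57, had 7.71, 19.2 and 13.3. Mest, a paternally expressed gene of embryonic mesoderm, fell from 25.5 to 9.26 and 4.8, a ratio of E11.5 to E15.5 of 5.32 (4.77 to 5.95). Of 11 genes of the list tested at the first step 6 rose and 2 fell, and none was called at the second. In the insulin-like growth factor list Igfbp2 rose from 7.84 to 28.3, with 34.6 at E15.5, and Igf1 fell from 1.4 to 0.257 and 0.161.

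Transcription factors of mesenchyme moved in both directions, while 3 of 3 cartilage genes tested at the first step, Col2a1, Col9a1 and Sox9, fell. Hmga2, a chromatin protein of early embryonic cells, had 1.61, 0.0916 and no UMI in 56 cells at E15.5. Twist1 fell at the first step, with 2.25, 0.819 and 0.627, and Prrx1, with 1.87, 1.03 and 0.602, was called lower over the whole span only. Levels were, for Sox9, a regulator of cartilage, 0.970, 0.234 and 0.308. Acan and Matn1 of mature cartilage had no UMI at any age. Foxc1 had 1.43, 1.65 and 2.0 and Zic1 7.84, 8.65 and 6.15, neither called for any pair. Tbx18 rose, with 1.52, 3.8 and 3.93, as did Osr1, with 0.983, 3.21 and 2.23, and Foxf2, with 0.235, 0.719 and 0.608. Of 18 mesenchymal transcription factors tested at the first step 3 rose and 3 fell, with a median log2 ratio of 0.24. With 10.6% of all tested genes higher and 4.91% lower, counts of this size in a short list are a description only.

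Some cell division genes fell at each step, mainly those of G2 and M phase at the first. Of 14 G2 and M phase genes tested from E11.5 to E13.5, 12 fell and none rose, with a median log2 ratio of -1.14 against -0.30 in neurons. From E13.5 to E15.5, 2 of 7 tested fell, Top2a and Cdk1. Ube2c, of the anaphase-promoting complex, had 6.61, 1.78 and 1.18, and the topoisomerase Top2a 2.30, 0.922 and 0.308. Of 12 S phase genes 2 fell at the first step and 5 of 9 at the second, among them Rrm2, a subunit of ribonucleotide reductase, with 1.22, 0.675 and 0.0787. Between E11.5 and E15.5, 11 of 12 S phase genes fell. At 3000 UMIs, UMIs of at least 3 G2 and M phase genes were found in 65.2% (57.4 to 72.5), 20.5% (13.7 to 28.7) and 8.93% (2.96 to 19.6) of members and in 0.392%, 0.185% and 0.104% of neurons. At full depth the shares were 85.4%, 33.6% and 12.5%.

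Lists of general cell structure moved little. Of 14 cytoskeleton and annexin genes tested at the first step 3 rose, S100a6 and the membrane-binding annexins Anxa2 (4.04, 9.84 and 7.48) and Anxa5 (1.84, 4.93 and 5.27), and none fell, with a median log2 ratio of 0.03. The intermediate filament gene Vim had 14.8, 19 and 19.3 and galectin Lgals1 27.4, 38 and 25.4, without a call. Of 3 neural progenitor genes tested Slc1a3 rose, with 2.13, 5.67 and 5.73, and the lipid-binding Fabp7 fell, with 1.86, 0.496 and 0.141. Of 5 neuronal genes tested, Stmn3 and Rtn1 rose and none fell. The lipoprotein gene Apoe rose at both steps, with 2.32, 5.27 and 11.2, and 273 of its 925 UMIs at E11.5 came from the cell with myeloid genes.

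Immediate early genes, which cells induce within minutes of stimulation and which also rise in dissociated tissue, increased in members and in neurons. Of 8 such and heat shock genes tested at the first step 7 rose, and 4 of 9 rose at the second. Fos had levels of 0.131, 2.66 and 5.74 in members and 0.0516, 0.207 and 1.42 in neurons. Fosb had 0.0308, 0.658 and 2.17 and Junb 0.134, 0.965 and 3.05 in members. Hspa1a, a heat shock gene, had 0.0315, 0.949 and 1.46 in members and 0.00899, 0.0403 and 0.116 in neurons. Dissociation was longer at E15.5 than at the other 2 ages, and its part in these values was not tested.

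The second step was named by its largest ratios. After Ptgds these were Sidt1, Cmbl, Pdgfrl, Fhl2 and Olfml3. Sidt1 had no UMI at E11.5 and levels of 0.225 and 1.34 later, and Olfml3, a secreted matrix protein, had 0.427, 0.644 and 2.44. On the falling side, besides globins, stood 2810417H13Rik, the gene of the replication factor PAF15, with 5.98, 1.66 and 0.248, and Aard, with 0.787, 1.12 and 0.314. At the first step Vamp5, a vesicle membrane protein, came next after Dcn with 0.0352, 3.07 and 6.02. Also among the first 10 was the lysophosphatidic acid enzyme Enpp2 with 0.0129, 1.05 and 2.11. Of the 388 genes called higher at the first step 15 were called higher again at the second, and of the 179 called lower 10 were lower again. Over all genes tested at the second step 1.65% were called higher and 1.63% lower.

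Against neurons of the same library the difference in these cells was set by the rule, and its size is a description. At a ratio of 2, 17.3%, 21.0% and 20.4% of genes tested were higher in members and 19.7%, 22.3% and 24.4% lower at E11.5, E13.5 and E15.5, with 384 genes higher and 523 lower at all 3 ages. Leading the genes outside the rule, by the smallest of their 3 ratios, were Sparc, Col4a1, Vtn, Cxcl12 and Eva1b. Sparc was 276-, 342- and 377-fold higher than in neurons, and Cxcl12 106-, 335- and 786-fold. Also among the first 15 were Emp3, a membrane protein, at 171-, 320- and 617-fold, Zfp36l1, which promotes mRNA decay, at 86.5-, 150- and 209-fold, and the glutamate transporter Slc1a3 at 142-, 232- and 242-fold. On the other side stood Six6, a transcription factor of the ventral forebrain and eye, with 1, 2 and 2 UMIs in all members and levels of 1.94, 1.85 and 2.26 in neurons. Pcsk1n, an inhibitor of prohormone convertase, had 0.111, 0.380 and 0.926 in members and 10.1, 18.5 and 23.3 in neurons. Rtn1, a reticulon of the neuronal list, had levels of 3.7 and 8.72 in members at the first 2 ages, against 27.7 and 40.7 in neurons, and rose 2.36-fold (2.18 to 2.55) at the first step.

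**Figure D4:**
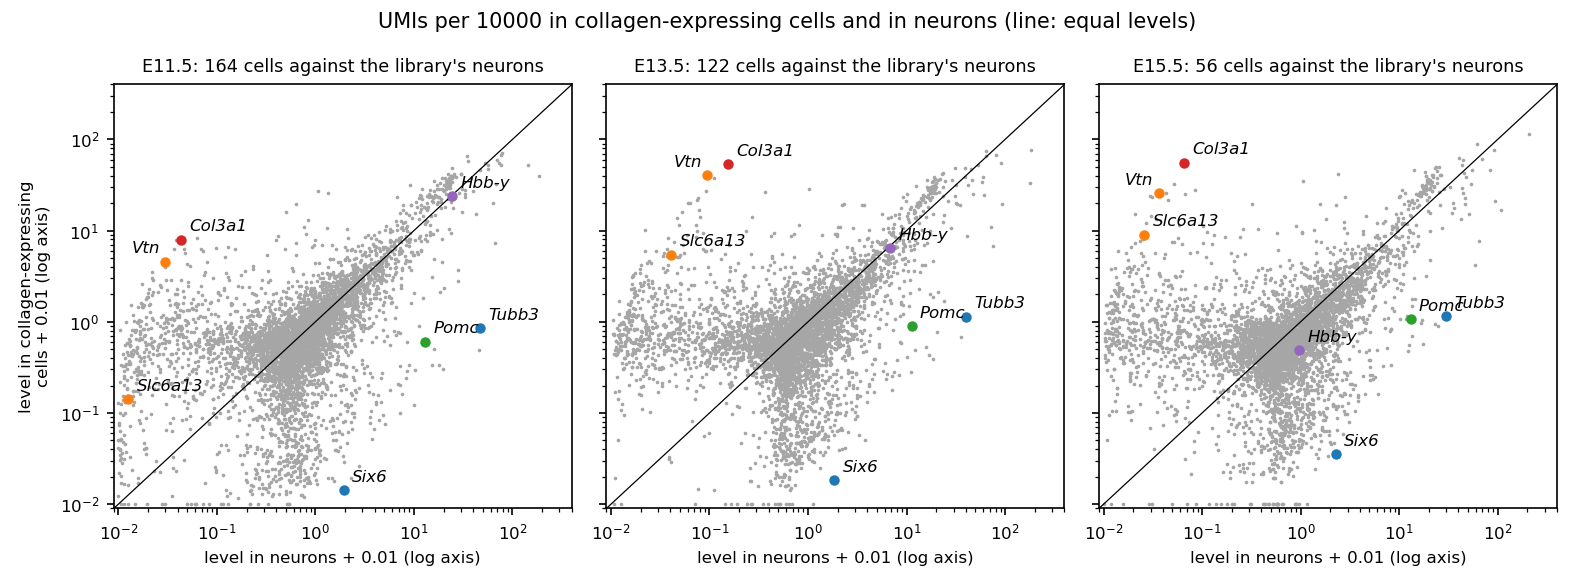
Level of every gene that reached 0.5 in members or neurons of any library (grey points), in neurons (x axis) and in collagen-expressing cells (y axis) of the E11.5, E13.5 and E15.5 libraries, both as UMIs per 10000 plus 0.01 on log axes, with the line of equal levels. Col3a1 and Vtn lie far above the line, Tubb3, Pomc and Six6 below it, and Hbb-y on it at E11.5 and E13.5.

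Members of 1 library also differed among themselves. With each member thinned to 3000 UMIs, the ratio of variance to mean over cells was 1.05 at the median gene of each library. At E11.5 the highest ratios were those of Actb (13.2), Hmox1 (8.23) and Apoe (5.73). Those of Hmox1 and Apoe rested on the cell with myeloid genes and were 0.983 and 1.30 without it. At E13.5 H19 (11.9), Cdkn1c (9.80) and Vtn (7.04) were among the first 4, and at E15.5 Ptgds (22.2), H19 (12.2) and S100a6 (12.0), a calcium-binding protein of fibroblasts, came first. Of the 10 genes with the highest ratios at each of these 2 later ages, only Malat1 and Actb had a ratio over 5 in neurons. The genes were ranked in members, and several were found in few neurons, so this comparison is a description only. Col3a1, for example, was found in 3.64% of neurons at E13.5 and 1.55% at E15.5 at 3000 UMIs.

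H19 and S100a6 were inversely related over cells at the later ages, though many cells had both. The pairs were picked after their values were seen, and the correlations describe cells of 1 library at equal depth. Spearman's rho between them was -0.69 over 122 members at E13.5 and -0.80 over 56 at E15.5. UMIs of both genes were found in 43 of 122 and 18 of 56 members. At E15.5, S100a6 averaged 0.889 UMIs in the 36 members with an H19 UMI and 11.6 in the 20 without. Igf2, Cdkn1c and the connexin gene Gjb6 went with H19 (rho 0.68, 0.60 and 0.61 at E15.5), while the proteoglycan gene Bgn and the microfibril gene Mfap2 went against it (rho -0.59 and -0.63) and with each other (0.69). All 14 members with a Ptgds UMI at E15.5, and all 11 at E13.5, also had an H19 UMI, among 36 of 56 and 77 of 122 members that did. At E11.5, H19 and S100a6 shared 48 of 164 members, and the pair did not reach a rho of 0.4 in size.

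**Figure D5:**
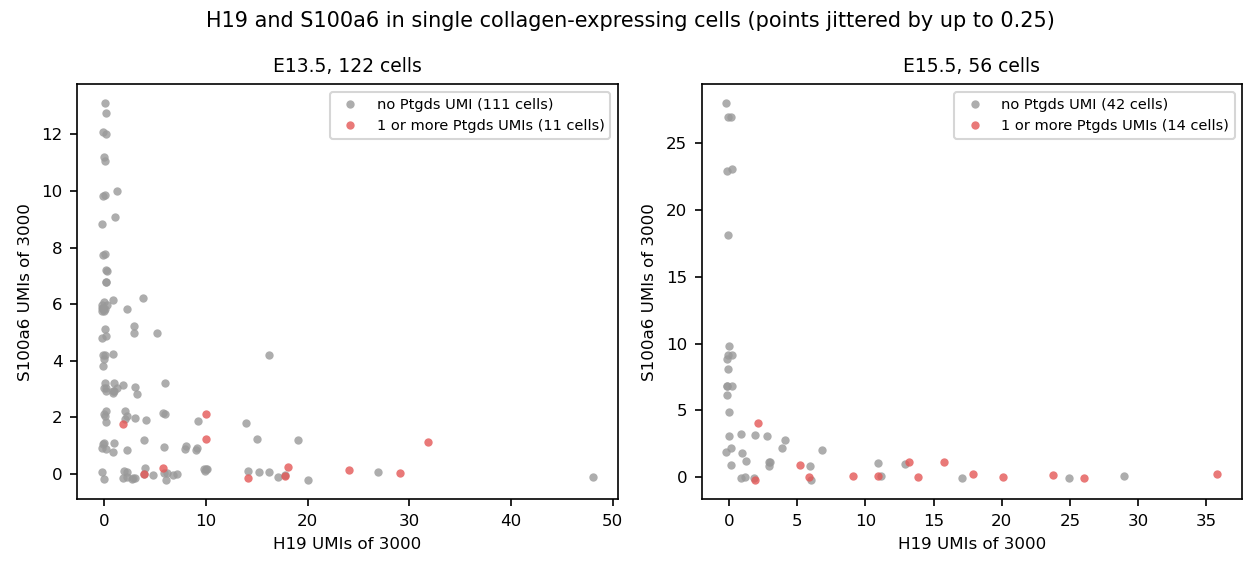
UMIs of H19 (x axis) and S100a6 (y axis) in each collagen-expressing cell at E13.5 (122 cells) and E15.5 (56 cells) after thinning to 3000 UMIs, with points jittered by up to 0.25 and cells with a Ptgds UMI in red. Cells with many UMIs of one gene have few of the other, 43 and 18 cells have UMIs of both, and all 11 and 14 red cells have an H19 UMI.

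Genes of cell division also varied between members. Ube2c was among the 10 highest ratios at all 3 ages, with 54.3%, 17.2% and 7.14% of members carrying a UMI at 3000 UMIs. At E13.5 it varied with Top2a (rho 0.70) and Arl6ip1 (0.60), and the chromatin genes Hmgb2 and H2afz varied together (0.64). Cdkn1c, the cell cycle inhibitor, went against H2afz (rho -0.44) in that library.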

How the data were processed

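The deposited values are UMI counts, with 1 matrix for each library. The authors aligned 10x Genomics 3′ reads with Cell Ranger (the submitters' notes list 2.2.0, 3.0.0, Seurat 3.0 and mm10), removed cells by numbers of genes and UMIs and by mitochondrial and hemoglobin share, and dropped those without a Pomc UMI. Reads count 3′ ends, so overlapping genes can share UMIs. Median UMIs per cell and library totals stand in the report.

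From these counts the members were chosen by the rule, and neurons as cells with at least 3 neuronal and fewer than 3 matrix genes at 2 UMIs. The members, lists and tests were chosen with earlier results of these data known. Levels were averaged over cells as UMIs per 10000, genes were tested at a level of 0.5 and called at a ratio of 2 after adding 0.05. Printed folds are plain ratios of levels with exact intervals, and the limit for 0 UMIs is 3 counts over all members of a library. No test was possible with 1 library per age.

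Named genes were the 13 genes of the rule and the sort, the genes of each list with the highest levels and those called, the 10 largest ratios each way per age pair at a level of 1, the 15 highest and 5 lowest against neurons, and the 10 highest ratios of variance to mean per library. Pairs of genes in the correlations were picked from these after their values were seen. Thinning drew 3000 UMIs per cell without replacement and left out 1 neuron at E13.5 and 13 at E15.5. Doublets were kept, with Scrublet (scanpy 1.11.5) as an alternative. Python 3.11.15, numpy 2.4.6, scipy 1.17.1 and matplotlib 3.10.9 were used. The steps were also run on counts simulated at the E11.5 depth, with counting error only and with changes larger than the cut. The data differ from that in depth and spread between cells, so nothing about the real calls is drawn from it. Gene positions are from GENCODE M21 and promoters from RefSeq. Values of a few named genes are not reported here.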

Additional observations from a re-analysis of the deposited data

Results flagged for a closer look

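At P12, a library outside the comparison and made with version 3 reagents, 15 of 3533 cells, or 0.425% (0.238 to 0.699), also met the thresholds. Ptgds had a level of 281 (275 to 288) in them, with UMIs in 11 of 15 cells, and Col1a2 41.6 and Slc6a13 8.69, while Ube2c had 1 UMI and H19 a level of 3.03. Myeloid C1qb had a level of 8.95 in these cells, 3.0 in the neurons of that library and 46.2 in the cells that were neither. At P5 1 cell of 3909 met the thresholds.

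In 7 genes the difference between collagen-expressing cells and neurons of the same library turned over between ages. The ratio was at least 2 in each direction, and each gene reached a level of 1 in members or neurons. The genes tested numbered 3969, 4364 and 4141 at E11.5, E13.5 and E15.5. Of these, 17.3%, 21.0% and 20.4% were higher in members by that ratio, and 19.7%, 22.3% and 24.4% lower. The share of all tested genes that turned over was not computed, so the count of 7 is a description only. The differences between ages were not tested, since each age is 1 library. Crabp2, a retinoic acid binding protein, had a log2 ratio of members to neurons of -4.81 at E11.5 and 2.68 at E15.5, and Camk2n1, an inhibitor of a calcium-dependent kinase, -2.55 and 1.17. Ebf1 had -1.08, -2.27 and 1.30 at the 3 ages. The other 4 turned the opposite way: Cited1 went from 2.34 to -2.57, Gpx3 from 1.66 to -2.01, the nucleotide enzyme Dut from 1.02 to -1.06, and Chst2 from 1.51 at E11.5 to -1.06 at E13.5.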

How the results depend on the processing

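Of 126 recomputed shares, levels and counts, 93 kept within the interval of the main value or within 1.5 times the main count. Some of these could not differ. Asking for 1 or more UMIs of a matrix gene took the same 164, 122 and 56 cells, and leaving out the E11.5 cell with myeloid genes could not change values of E13.5 and E15.5 alone. With fewer than 2 neuronal genes the share of collagen-expressing cells at E11.5 was 9.21%, and with the rule applied to cells thinned to 3000 UMIs 4.54%, below the 7.91% at E13.5. With only cells of at least 2 Pomc UMIs, which left 19, 16 and 9 members, the shares were 2.34%, 1.94% and 0.786% and the Pomc levels 1.07, 1.48 and 2.03. In that setting the numbers higher and lower were 393 and 527 at E15.5 against E13.5, and 780 and 699 at E15.5 against E11.5. Asking for a level of 0.2 gave 690, 289, 124, 191, 781 and 683 genes (E13.5 against E11.5 higher and lower, E15.5 against E13.5, E15.5 against E11.5), a level of 1 gave 223, 110, 31, 20, 257 and 221, and a ratio of 1.5 gave 746, 555, 185, 335, 753 and 892. For E15.5 against E13.5, thinning gave 164 higher and 267 lower, and totals without mitochondrial, ribosomal and hemoglobin genes 94 higher. The cause was not tested, beyond fewer cells or a looser or stricter cut.

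Of 3087 recomputed log2 ratios of called genes named by the rule, 2992 kept the call, of which 343 came from the setting that took the same cells. The 9 that reversed all came with at least 2 Pomc UMIs, among them at E13.5 against E11.5 P3h1 (-0.052), at E15.5 against E13.5 A330069E16Rik (-0.66) and Tff3 (-2.14), and at E15.5 against E11.5 Dkk3 (-0.38), Mt1 (-0.80), Tagln (0.39), Tff3 (-1.24) and Tgfbr2 (-0.084). Leaving out the E11.5 cell with myeloid genes, an alternative chosen after seeing the data, gave 390 genes higher at E13.5 than at E11.5. No paired analysis was possible because each age is 1 library and no test was run. With 56 cells, a gene with 0 UMIs at E15.5 may have a level of up to 0.0432.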
